A study of Mus musculus with 12 samples.

Results

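The Iroquois homeobox genes were examined as a family: all 6 mouse members, Irx1 to Irx6, were chosen by gene symbol and all 6 were found among the 21563 genes of the deposited comparison of heart tube (HT) with posterior second heart field (pSHF). Iroquois proteins are homeodomain transcription factors of the TALE class, named after the Drosophila genes that pattern the notum. In mammals the genes lie in a pair of clusters, IrxA and IrxB, and are used in patterning of the neural tube, limb, lung and heart. In the mouse heart Irx4 is known as a factor of ventricular muscle, Irx3 and Irx5 for their part in conduction and repolarization, Irx1 and Irx2 for expression in the ventricular septum, and Irx6 is the least studied.

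Poly-A RNA was sequenced from embryos of wild-type CD1 mice at stage E10.0, with 6 HT and 6 pSHF libraries. The HT is the beating, differentiating heart, and the pSHF is the mesoderm behind it that adds cells to the atria and the atrial septum. Both tissues carried no mutation or treatment, and both were microdissected from the same embryo per the labels' protocols. Whether embryos were pooled for a library is not stated in the labels. The spread behind each p-value is therefore that between these libraries, which may be technical.

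Levels are the authors' normalized gene counts, given as mean ± SD with n = 6 libraries per tissue. Depths rebuilt from the smallest steps of these values ranged from 20634432 to 25645396 reads for HT and from 19089555 to 26287286 for pSHF. These depths are approximate, since only 46.5 to 49.4% of values that round to 20 reads or fewer were whole reads within 0.01 reads. Differences are given as log2 fold changes, HT relative to pSHF, of the value plus 1, a scale that understates changes of low genes. They come from limma fitted across 14909 genes with Benjamini-Hochberg adjustment. In that fit 78.3% of genes passed an adjusted p of 0.05, 38.3% with higher levels in HT and 40.0% in pSHF, so passing the test is the usual case here. The defining markers matched the labels. The troponin gene Tnnt2 had mean levels of 52116 ± 4955 (HT) and 3706 ± 1008 (pSHF), the splanchnic mesoderm factor Foxf1 of 14.4 ± 9.02 (HT) and 2189 ± 337 (pSHF), and the pSHF factor Osr1 of 70.2 ± 22.4 (HT) and 2212 ± 257 (pSHF). In such bulk tissue, fewer cells of a type and less RNA per cell cannot be told apart.

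Of the 6 Iroquois genes, 4 were higher in HT (Irx4, Irx6, Irx5 and Irx2) and 2 were higher in pSHF (Irx3 and Irx1). The sizes were far apart. Irx4 differed by over 100-fold and Irx6 by 5.89-fold in mean level, whereas the ratios of the other 4 genes lay between 0.556 and 1.45. The ranges of the HT and pSHF libraries did not overlap for 5 of the 6 genes, against 60.5% of all genes tested. Irx2 was the exception, and its call depended on the scaling of the libraries.

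**Figure D1:**
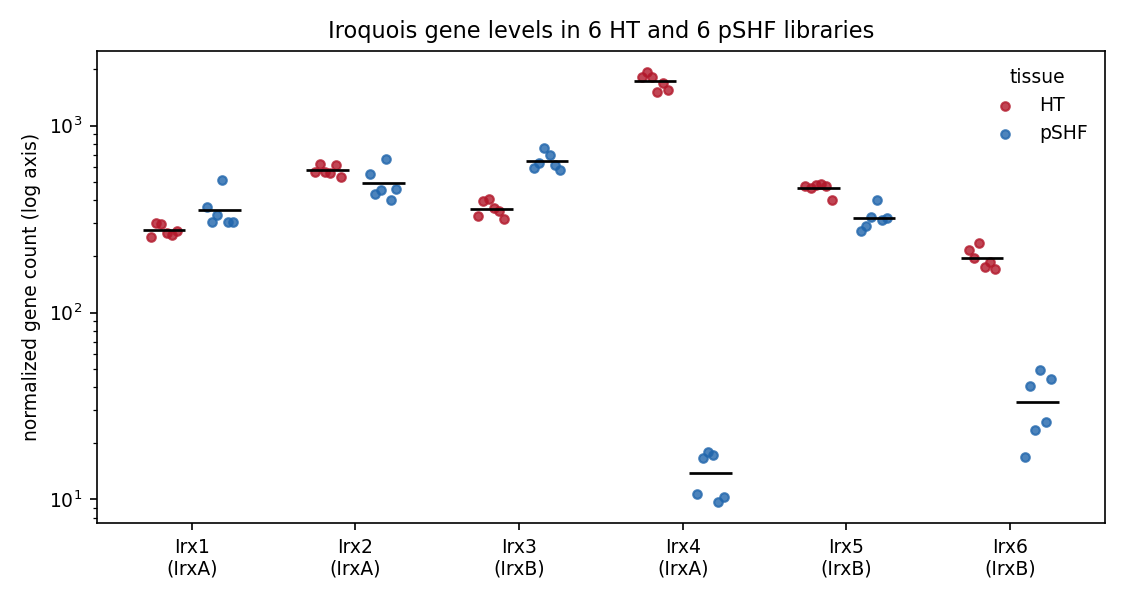
Normalized gene count (log axis) of each Iroquois gene in every library, with 6 HT libraries in red and 6 pSHF libraries in blue and the mean of each tissue as a black line. Irx4 sits between 1522 and 1932 in HT and between 9.73 and 18.04 in pSHF, while both tissues lie within the same narrow band for Irx2.

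The positions of the genes are those of GENCODE release M21 for GRCm38 (mm10). The IrxA cluster lies on chromosome 13, with Irx1 at 71957921 to 71963723 on the minus strand, Irx2 at 72628820 to 72634198 and Irx4 at 73260479 to 73269608, both on the plus strand. The start sites are spaced by 665 and 632 kb. The IrxB cluster lies on chromosome 8, with Irx3 at 91798525 to 91802067 on the minus strand and Irx5 at 92357625 to 92376286 and Irx6 at 92674288 to 92680956 on the plus strand, spaced by 556 and 317 kb. Irx3 shares 124 exon bases with the antisense gene Irx3os and Irx6 shares 152 with the antisense gene Gm45505, neither of which was analysed here. The protocol calls the reads stranded, whereas the named kit does not mark strand by its design, and no source used here says whether the counting used strand. Reads in these bases therefore cannot be assigned. Stretches of 50 bases, the read length, were seldom shared with transcripts of other genes: 0% of the stretches of Irx1 and of Irx4, 0.481% for Irx2, 0.552% for Irx5, 3.53% for Irx6 and 4.16% for Irx3. Reads from these stretches cannot be assigned to a single gene.

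Start-site sequences were at hand for 3 members from RefSeq (GRCm38.p6), each from 250 bases before to 50 bases after the start. They are shown as the windows at hand, for a gene higher in HT (Irx4), one near equal (Irx2) and one higher in pSHF (Irx3). They are written 5′ to 3′ on the strand of the gene, with CpG dinucleotides in capitals. The windows are chr13:73260247-73260546 (plus strand) for Irx4, chr13:72628570-72628869 (plus strand) for Irx2 and chr8:91801605-91801904 (minus strand) for Irx3. The RefSeq start of Irx3 lies inside the gene as GENCODE annotates it, so that whole window falls within the GENCODE gene and is not a like-for-like match to the windows of Irx2 and Irx4.
Irx4: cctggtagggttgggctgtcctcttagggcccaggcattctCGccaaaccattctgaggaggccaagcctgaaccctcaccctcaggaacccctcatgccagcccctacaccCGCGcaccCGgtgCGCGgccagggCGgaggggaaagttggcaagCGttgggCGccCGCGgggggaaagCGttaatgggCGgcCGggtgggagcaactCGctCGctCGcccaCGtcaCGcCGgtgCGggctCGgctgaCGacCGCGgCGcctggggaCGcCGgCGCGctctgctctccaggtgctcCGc
Irx2: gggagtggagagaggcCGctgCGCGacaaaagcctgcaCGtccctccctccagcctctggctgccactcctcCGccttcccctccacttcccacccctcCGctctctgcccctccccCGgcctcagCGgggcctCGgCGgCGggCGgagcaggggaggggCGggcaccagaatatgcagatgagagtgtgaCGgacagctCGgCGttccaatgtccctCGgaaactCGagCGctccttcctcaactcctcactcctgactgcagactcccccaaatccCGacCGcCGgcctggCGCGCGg
Irx3: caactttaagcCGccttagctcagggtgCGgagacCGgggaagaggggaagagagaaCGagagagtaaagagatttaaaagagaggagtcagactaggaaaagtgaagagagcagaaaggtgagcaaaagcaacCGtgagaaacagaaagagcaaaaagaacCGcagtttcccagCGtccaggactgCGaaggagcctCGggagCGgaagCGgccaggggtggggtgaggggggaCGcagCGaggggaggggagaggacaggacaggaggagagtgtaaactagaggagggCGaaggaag
The Irx4 window held 31 CpG and 70.7% G or C, the Irx2 window 25 and 69.0%, and the Irx3 window 14 and 56.0%. The median over 32851 promoter windows of the same length was 52.7% G or C. Relative to the number that base content gives, CpG stood at 0.828 in Irx4, 0.723 in Irx2 and 0.748 in Irx3, against a median of 0.384 over all windows. Searched on both strands, the Iroquois-type palindrome ACANNTGT (in 7.38% of all windows), the GLI site GACCACCCA (0.253%), the T-box site AGGTGTGA (1.28%), the NK2-type site CAAGTG (13.6%), the GATA-type site AGATAA (11.2%) and the TATA box TATAAA (13.6%) had no match in the 3 windows. The E-box CANNTG, present in 72.3% of all windows, matched 1 time in Irx2 at window position 177 and 1 time in Irx4 at position 289, and had no match in Irx3. Every ACANNTGT match contains a whole E-box, so the searches for these patterns are not independent.

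Irx4 (ENSMUSG00000021604.11), the ventricular member of the IrxA cluster, was the family member with the largest difference. In HT its normalized counts ran from 1522 through a median of 1757 to 1932, and in pSHF from 9.73 through a median of 13.7 to 18.04. Every HT library thus lay far above every pSHF library. The means were 1724 ± 164 and 13.8 ± 3.96, and the log2 fold change was 6.90 (standard error 0.154, 95% interval 6.58 to 7.23, adjusted p of 1.74e-14 in limma). By size this was the 4th largest log2 fold change toward HT of all genes tested, a rank that depends on the added 1. With 0.5 added instead, Irx4 had 6.96, below Lyz1 (7.79) and Ankrd63 (7.07). The pSHF level of Irx4 was 0.801% of its HT level. Of 10 ventricular genes in the same libraries, only Myl2 and Pln had a lower percentage. Myl2, the ventricular regulatory myosin light chain, was at 0.0757%, and Pln, the inhibitor of the calcium pump, at 0.464%. Myh7, the beta-myosin heavy chain, was at 1.01%, and Hand1, a basic helix-loop-helix factor of the left ventricle, at 5.23%. The rest ran from Myl3 at 1.89% to Hey2 at 13.1% and Mycn at 114%.

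Irx6 (ENSMUSG00000031738.10), a member of the IrxB cluster, had the next largest difference. Its counts ran from 171 through 191 to 235 in HT and from 16.8 through 33.2 to 49.4 in pSHF, so every HT library was well above the highest pSHF library. The means were 196.5 ± 25.1 in HT and 33.4 ± 13.1 in pSHF, and the log2 fold change was 2.61 (standard error 0.224, adjusted p of 3.78e-08 in limma). Irx6 varied most between pSHF libraries, with a coefficient of variation of 39.1%.

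Irx5 (ENSMUSG00000031737.10), which lies next to Irx6 and is known from mouse hearts for the gradient of repolarization across the ventricular wall, was modestly higher in HT. Its counts ran from 403 through 475 to 489 in HT and from 272 through 317 to 398 in pSHF. The highest pSHF library, MR16, came close to the lowest HT library, MR30, but the ranges did not overlap. The means were 465 ± 31.7 and 320.1 ± 43.4, a log2 fold change of 0.54 (95% interval 0.37 to 0.72, adjusted p of 2.34e-05 in limma).

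Irx3 (ENSMUSG00000031734.12), the first gene of the IrxB cluster and a factor needed for fast conduction in the mouse ventricle, went the other way. Its counts ran from 315.5 through 357 to 403 in HT and from 577 through 622 to 762 in pSHF, without overlap. The means were 359 ± 34.9 in HT and 645.5 ± 70.9 in pSHF, and the log2 fold change was -0.84 (standard error 0.0796, adjusted p of 1.15e-07 in limma). Within the IrxB cluster, neighbouring genes therefore differed in opposite directions, with Irx3 higher in pSHF and both Irx5 and Irx6 higher in HT; these directions held under each of the scalings tried.

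Irx1 (ENSMUSG00000060969.8) was slightly higher in pSHF. Its counts ran from 253 through 270 to 302 in HT and from 304 through 320.1 to 515 in pSHF, so the ranges were separated by about 2 counts. The means were 275 ± 19.6 and 355 ± 82.1, a log2 fold change of -0.34 (95% interval -0.59 to -0.10, adjusted p of 0.0134 in limma). Without pSHF library MR16, which held the highest value, the log2 fold change was -0.23 and the adjusted p in limma 0.0115.

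Irx2 (ENSMUSG00000001504.10), which shares the IrxA cluster with Irx1 and Irx4, stood at nearly the same level in both tissues. Its counts ran from 530.0 through 566.5 to 624 in HT and from 398 through 455 to 666 in pSHF, and the highest library of all 12 was a pSHF library. The means were 576 ± 36.1 and 493 ± 99.2, a log2 fold change of 0.24 (95% interval 0.02 to 0.47, adjusted p of 0.0421 in limma). The call was lost (adjusted p of 0.0503 to 0.103 in limma) when HT library MR25, MR26, MR27, MR28R or MR29 or pSHF library MR14, MR15, MR17 or MR18 was left out, and in the authors' deposited table the adjusted p was 0.0605. Scaled to equal totals, the log2 fold change of Irx2 was -0.0011.

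**Figure D2:**
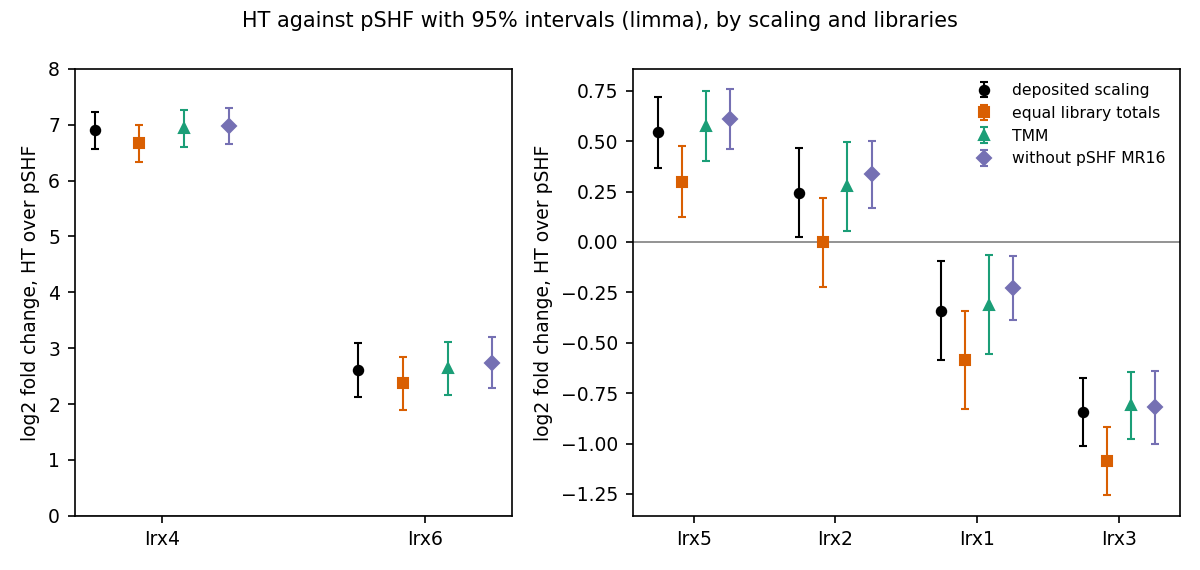
Log2 fold change of HT over pSHF with its 95% interval from limma, for Irx4 and Irx6 (left) and for Irx5, Irx2, Irx1 and Irx3 (right, on a narrower scale), under the deposited scaling, equal library totals, TMM scaling and without pSHF library MR16. The 4 symbols of a gene stay on the same side of 0 except for Irx2, whose value is 0.24 with the deposited scaling and -0.0011 with equal library totals.

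The scaling matters for the small differences in general. With equal library totals the median log2 fold change over all genes moved from -0.02 to -0.27, and the calls split into 3917 higher in HT and 8185 higher in pSHF, against 5708 and 5968 with the deposited scaling. Relative to that shift Irx1 (-0.59) and Irx3 (-1.09) stayed lower in HT, and Irx5 (0.30), Irx6 (2.37) and Irx4 (6.67) stayed higher. All 13 erythroid genes were higher in HT, against 38.3% of all genes tested. The erythroid genes held 1.66 to 7.10% of the normalized counts of HT libraries and 0.351 to 0.694% of those of pSHF libraries. Their part in the small differences was not tested beyond the scaling that leaves them and the mitochondrial-genome genes out of the totals, under which Irx2 had a log2 fold change of 0.07 (adjusted p of 0.560 in limma) and Irx1 of -0.52.

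Per kilobase of exon, Irx4 led the family in HT and was last in pSHF. In HT the order was Irx4 (661 ± 62.9 normalized counts per kilobase), Irx2 (175.5 ± 11.0), Irx5 (149 ± 10.1), Irx3 (130.0 ± 12.6), Irx1 (105 ± 7.48) and Irx6 (58.3 ± 7.43). In pSHF it was Irx3 (234 ± 25.7), Irx2 (150.2 ± 30.2), Irx1 (135.5 ± 31.4), Irx5 (102 ± 13.9), Irx6 (9.91 ± 3.87) and Irx4 (5.30 ± 1.52). Within each library every gene was above the next in the order in 6 of 6 libraries, for all 10 neighbouring pairs. An exact paired permutation test gave p = 0.0312 for each pair, the smallest that 6 pairs allow, and 0.0312 after Benjamini-Hochberg adjustment over the 10 pairs. The order and its neighbouring pairs were taken from the means of these same libraries. The p-values are therefore no independent support for the order. Across libraries the ranges of Irx5 and Irx3 and of Irx3 and Irx1 overlapped in HT, as did those of Irx2 and Irx1, Irx1 and Irx5, and Irx6 and Irx4 in pSHF, although the order held within each library. With the longest transcript as the length, the steps from Irx3 to Irx1 in HT and from Irx6 to Irx4 in pSHF held in 5 of 6 libraries (adjusted p = 0.0625, exact paired permutation test).

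The make-up of the family differed accordingly. Irx4 supplied 51.7 ± 1.65% of the summed Iroquois level per kilobase in HT and 0.827 ± 0.200% in pSHF. Irx3 supplied 10.2 ± 0.664% in HT and was the largest part in pSHF, at 36.9 ± 3.66%. The IrxA genes together held 73.6 ± 1.28% in HT (range 71.6 to 75.0%) and 45.4 ± 4.16% in pSHF (range 41.4 to 50.7%). As a ratio within a library this share does not depend on the scaling between libraries.

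**Figure D3:**
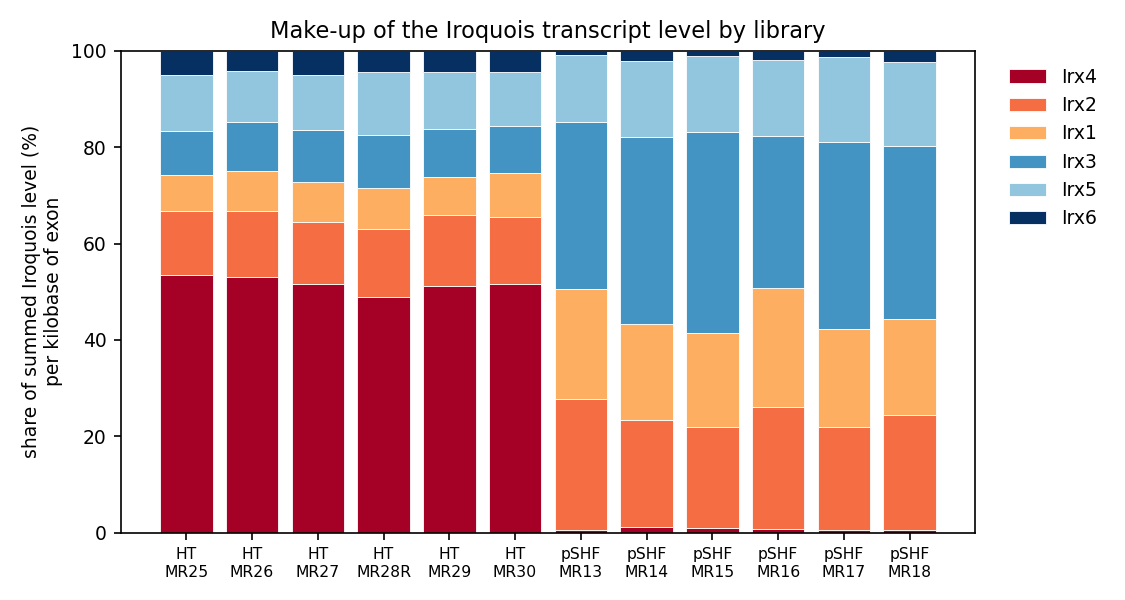
Share of each gene in the summed Iroquois level per kilobase of exon (percent), as stacked bars for the 6 HT and 6 pSHF libraries, with IrxA genes in warm and IrxB genes in blue colours. Irx4 makes up 51.7% of the level in HT on average and 0.827% in pSHF, where Irx3 is the largest part at 36.9%.

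Apart from Irx4, the summed level of the family was near equal in the 2 tissues under the deposited scaling. The 6 genes together stood at 1279 ± 92.8 normalized counts per kilobase in HT and 637 ± 86.3 in pSHF. Without Irx4 they stood at 618 ± 36.0 in HT (range 559.5 to 656) and 632 ± 85.4 in pSHF (range 568.5 to 794). With equal library totals the levels without Irx4 were 569 ± 35.6 and 690.2 ± 91.0, and the ranges no longer overlapped. The sum was computed under these 2 scalings. The split of the remaining 5 genes between the clusters was also alike, with Irx1 and Irx2 holding 45.5 ± 1.54% in HT and 45.0 ± 4.24% in pSHF.

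The coefficient of variation was higher between pSHF libraries than between HT libraries for all 6 genes. It was 23.1% in pSHF and 7.12% in HT for Irx1, 20.1% and 6.26% for Irx2, and 11.0% and 9.71% for Irx3. It was 28.7% and 9.51% for Irx4, 13.6% and 6.82% for Irx5, and 39.1% and 12.7% for Irx6. The median over 6027 genes with a mean of 100 to 1000 counts was 7.94% in pSHF and 9.03% in HT. That band was set on the mean over all 12 libraries. Irx4 and Irx6 had pSHF means of 13.8 and 33.4, under the band, so the pSHF median is no like measure for them. How many of all genes varied more in pSHF was not counted. The pSHF library MR16 was the highest for 4 of the 6 genes (Irx1, Irx2, Irx5 and Irx6) and the next highest after MR15 for Irx3 and Irx4. It held the highest value among pSHF libraries for 16.2% of all genes tested. Irx1 stood at 515 in MR16 and at 323 ± 28.0 in the other 5 libraries, and Irx2 at 666 in MR16 and 458 ± 57.4 in the others. In HT, MR30 was the lowest library for 4 of the 6 genes (Irx2, Irx3, Irx5 and Irx6). How often MR30 was the lowest HT library over all genes tested was not counted, so this may be a trait of the library. The erythroid share of MR30 was 5.85%, the highest of the HT libraries after MR28R (7.10%). The part of the erythroid share in these values was not tested.

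**Figure D4:**
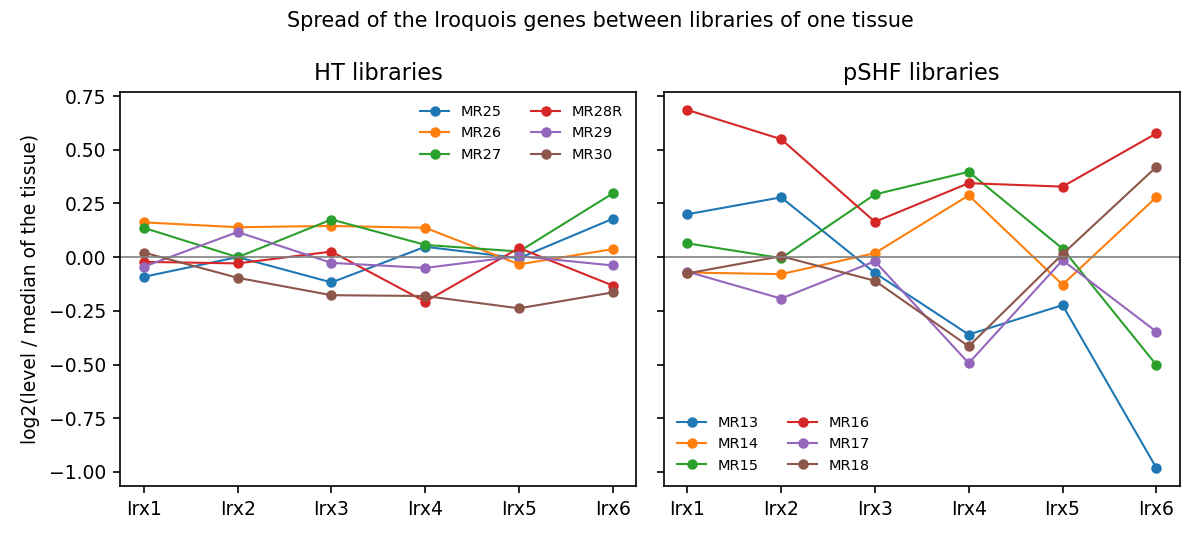
Log2 ratio of each library's level to the median of its tissue for the 6 Iroquois genes, with HT libraries on the left and pSHF libraries on the right. MR16 lies at the top of the pSHF panel for Irx1, Irx2, Irx5 and Irx6, and MR30 at the bottom of the HT panel for Irx2, Irx3, Irx5 and Irx6.

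Genes around the clusters went both ways. Of 115 other annotated genes with a start site within 1 Mb of a member, 37 were in the table and 24 were tested. Over all genes tested, 38.3% were higher in HT and 40.0% in pSHF. Near IrxA, 6 of 14 were higher in HT, 3 were higher in pSHF and 5 did not pass, with a median log2 fold change of 0.02. All of these lie beyond Irx4, so the Irx1 side and the stretches between the members are not covered. Near IrxB, 2 of 10 were higher in HT, 7 were higher in pSHF and 1 did not pass, with a median of -0.72, against -0.02 over all genes tested. Among the 7, Ces1d, Ces1g and Slc6a2 (means of 1.82 in HT and 17.9 in pSHF) reached the filter mean of 5 only through pSHF. Their direction was thus set by the filter, and the median rests in part on them. Near IrxA, Slc6a3 (9.53 in HT and 4.71 in pSHF) reached it only through HT. Predicted gene names aside, the measured genes nearest to Irx4 were Mrpl36, a mitochondrial ribosomal protein gene, and Ndufs6, a subunit of mitochondrial complex I. Both start sites lie 68 kb away, and both genes were higher in HT, by log2 fold changes of 1.01 and 1.14. Fto, an RNA demethylase gene whose introns are known to hold enhancers of Irx3, had levels of 2691 ± 97.4 (HT) and 2599 ± 66.0 (pSHF), and did not pass (0.05, with an adjusted p of 0.165 in limma). Mmp2, a matrix metalloproteinase gene 153 kb beyond Irx6, was higher in pSHF by -1.06, opposite to Irx6. The largest differences belonged to the carboxylesterase genes Ces1d and Ces1g, which had values of 0 throughout HT and means of 61.6 and 19.7 in pSHF.

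**Figure D5:**
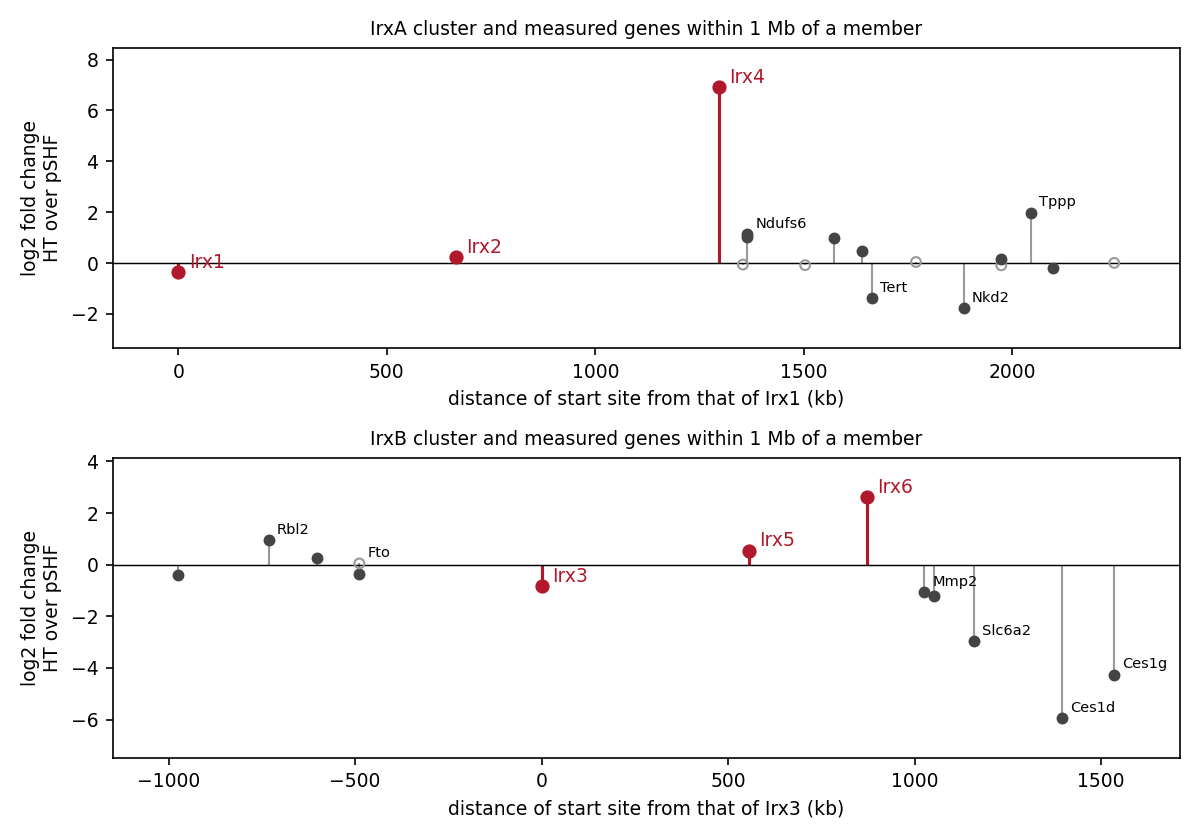
Log2 fold change of HT over pSHF (vertical) against the distance of the start site from that of Irx1 (top, IrxA) or Irx3 (bottom, IrxB) in kb, with Iroquois genes in red and other tested genes in dark grey, open circles marking those that did not pass. Irx4 reaches 6.90 while the other tested genes near IrxA stay between -1.78 and 1.99.

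Genes tied to Iroquois factors in the mouse heart by earlier work were mostly higher in HT: 10 of 13 were higher in HT and 3 in pSHF, with a median log2 fold change of 1.61. Among all genes tested 38.3% were higher in HT and 40.0% in pSHF, with a median of -0.02. Factors on which Irx4 expression is known to depend belonged to the 10 genes higher in HT. Nkx2-5 had mean levels of 2265 ± 107 (HT) and 172 ± 45.8 (pSHF), and Hand2 of 2393 ± 121 and 788 ± 105. Hand1 and Nppa, both known to change in hearts without Irx4, had log2 fold changes of 4.33 and 6.94. Bmp10, a growth factor of trabecular muscle linked to Irx3 and Irx5, had one of 4.72. Of the conduction genes linked to Irx3 and Irx5, the connexin gene Gja5 (2.03) was higher in HT, Kcnd2, a potassium channel gene repressed by Irx5, was at 136 ± 11.4 and 89.7 ± 24.3 (0.63), and its partner Kcnip2 was higher in pSHF (-0.83) at low levels. The connexin gene Gja1 had a small difference (0.23) that turned to -0.02 with equal library totals. Tbx5, a T-box factor of the posterior heart (-0.58), and Rxra, a retinoid receptor gene (-0.64), were higher in pSHF, and the vitamin D receptor gene Vdr was at 40.0 ± 6.25 and 27.2 ± 7.91 (0.57; 0.33 with equal library totals, where its adjusted p in limma was 0.126).

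The other homeobox genes of the TALE class had one direction, unlike the Iroquois genes. All 12 tested (Meis, Pbx, Pknox, Tgif and Mkx) were higher in pSHF, against 40.0% of all genes tested. Their median log2 fold change was -1.15, against -0.02 over all genes tested. They ran from Mkx (-2.44) to Pbx2 (-0.36). Meis1, a cofactor of Hox proteins, had levels of 1931 ± 201 (HT) and 4792 ± 222 (pSHF).

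Marker lists of the cell types in these dissections moved with the tissues as well. Of 10 ventricular genes 9 were higher in HT (Mycn, at -0.19, was not), and of 10 trabecular and conduction genes 9 were (Slit3, at -0.79, was not). Atrial and sinus venosus genes went both ways, 5 of 10 higher in HT with Myl4 (3.62) at one end and 4 higher in pSHF with Nr2f1 (-2.24) at the other. Among 10 markers of the pSHF itself, 9 had higher levels there, while Gata4 (1.82) was higher in HT. Endothelial and endocardial genes, markers of a layer known to express Irx5, were higher in HT for 9 of 10, with a summed level of 25106 to 31795 in HT and 14370.0 to 16483 in pSHF; Nfatc1 had 2.48 and Cldn5 -4.22. Erythroid genes ran from Epor (2.35) to Hbb-bh1 (3.17).

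Marker genes of tissues outside the heart were mostly higher in pSHF, among them markers of tissues in which Iroquois genes are also known to be active. Of all genes tested 40.0% were higher in pSHF, and marker genes near 0 in HT passed the filter only through pSHF. All 11 genes of foregut and lung endoderm were higher in pSHF, from Nkx2-1, the lung and thyroid factor with a mean of 0.352 in HT and 621 in pSHF, to Krt8 (a log2 fold change of -0.28), with a summed level of 1180 to 1702 in HT and 6500 to 8092 in pSHF. Of 8 neural genes tested 6 were higher in pSHF and 1, Sox3 (5.06), in HT. Pax6 did not pass and had a mean of 7.68 in pSHF. Olig2 was at 0 in every library, and Sox1 and Neurog2 had means under the filter mean of 5 in both tissues. Nkx6-1 had a mean of 438 in pSHF and only values of 0 in HT. The list summed to 719 to 782 in HT and 2389 to 3507 in pSHF. Its highest means in pSHF were those of Dcx (1283), Tubb3 (535) and Nkx6-1. All 8 neural crest genes tested, with the smallest difference in Erbb3 (-0.34), and 8 of 9 somite genes, led by Pax1 (means of 0.948 and 392), were higher in pSHF, while the somite gene Meox1 (0.12) did not pass. All 7 hepatic genes, from Afp (-5.55) to Ttr (-1.93), were higher in pSHF, but the ranges of the tissues were apart for only 2 of them. The list summed to 13.2 to 980 in HT and 449.5 to 7201 in pSHF, with overlap. Epicardial genes, which mark a layer of the heart itself, split, with 3 of 7 toward HT, led by Upk1b (2.37), and 3 toward pSHF, led by Aldh1a2 (-1.84). What part these cells had in the Iroquois levels of either tissue was not tested.

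For each Iroquois gene the 3 genes with the most similar profile were found, by the root mean square difference of centred log2 levels over the 12 libraries. This measure contains the difference between the tissues. Nearest to Irx4 were Lyz1, Myh7 and Ankrd63, at 0.297, 0.367 and 0.563 log2 units. Lyz1, a lysozyme gene that shares much of its sequence with Lyz2 and is therefore uncertain, was at 0 throughout pSHF and Ankrd63 had a mean of 0.132 there, so their distance and rank depend on the added 1. With a pseudocount of 5 the log2 fold change was 4.53 for Lyz1 and 4.02 for Ankrd63, and 6.54 for Irx4. Nearest to Irx6 were Kat2b (0.200), the potassium channel gene Kcna4 (0.232) and Tecrl (0.240). Nearest to Irx3 were Zfp629 (0.0930), Metrn (0.0962) and Kif7 (0.0989), a kinesin of Hedgehog signaling at the cilium that stood at 446 in HT and 862 in pSHF. Nearest to Irx5 were the guidance ligand gene Slit2 (0.0731), Zdhhc7 (0.0863) and Dolk (0.0925). Nearest to Irx1 were Phf12 (0.139), Fbxw9 (0.145) and Telo2 (0.145), and nearest to Irx2 were B3gat2 (0.102), Uqcc3 (0.125) and Rhbdd3 (0.130).

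The deposited table of raw counts, which held 233865 to 340434 counts per library, gave the Irx4 difference again and could not resolve the others. Irx4 had 21 to 38 raw counts in each HT library and 0 in each pSHF library, 187 of 1539472 against 0 of 1691923 in all. Taking 3 counts over the pSHF group as the limit that 0 allows, Irx4 was at least 68.5-fold higher in HT, a limit for counting error only (adjusted p of 1.93e-17 in edgeR's quasi-likelihood test, where 48.3% of 3370 genes passed). The raw counts carry the same library codes as the normalized values and are no independent support. The other 5 genes fell under the expression filter, which Irx4 passed through its HT counts alone. Their raw counts summed to 5 in HT and 14 in pSHF for Irx1, 19 and 14 for Irx2, 21 and 34 for Irx3, 36 and 23 for Irx5, and 5 and 2 for Irx6. Without a filter none of the 5 passed in edgeR (adjusted p of 0.213 to 0.527, where 17.8% of genes were called, with 9.22% toward HT and 8.57% toward pSHF), so their differences were not detectable at this depth.

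In the authors' deposited table the log2 fold changes of HT over pSHF were 6.95 for Irx4, 2.55 for Irx6, 0.54 for Irx5, 0.23 for Irx2, -0.37 for Irx1 and -0.85 for Irx3. There 65.6% of genes passed, and 5 of the 6 Iroquois genes did. These values rest on the same libraries and are not independent of the ones above.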

How the data were processed

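Poly-A RNA-seq libraries of HT (n = 6) and pSHF (n = 6) were compared. STAR, DESeq2 and mm10 are named in the submitters' processing notes; no source used here gives their versions, the counting tool or the annotation. TruSeq RNA version 2 libraries were read from a single end for 50 bases, per the labels' protocols. The deposited tables held raw counts for 23324 symbols, and, per the file headers, a DESeq2 comparison by the authors that gives a deposited log2 fold change with standard error, the deposited Wald score and the deposited p-value, raw and adjusted. For every library that table also holds a deposited signal, here named normalized gene counts. Libraries were grouped by the tissue in the column name, which carries a code and no replicate number.

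Members and gene lists were chosen with earlier results of these data known. Normalized gene counts were tested with limma 3.58.1 (trend; log2(value + 1); mean of at least 5; adjusted p threshold 0.05), raw counts with edgeR 4.0.16 (TMM, filterByExpr) and, as an alternative, DESeq2 1.42.0. Orders of levels were tested with SciPy 1.17.1. The IrxA share was planned with a test but is given as a description, since the genes were chosen with results known. The fits were tested on simulated data. Named genes follow a fixed rule: the 6 members, their 3 most similar profiles, the nearest named gene on each side of a cluster (for IrxA only beyond Irx4) and the 2 largest differences within 1 Mb, all genes tied to Iroquois factors, the ends of every other list, and 3 label checks. Other genes were named after their values were seen, and some genes that the rule takes are left out of the text. Identifiers matched the gene name table for 21345 of 21563 genes. Alternatives were other pseudocounts, filters, scalings, thresholds and lengths, the untrended fit and leaving out each library.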

Additional observations from a re-analysis of the deposited data

Results flagged for a closer look

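In 14 groups of 6 libraries (6 genes and the IrxA share, in each tissue), 2 single libraries stood apart from the rest of their tissue by more than a 95% Dixon criterion. Chance alone gives about 1 in 20 groups. The groups of a tissue share their libraries, and the share is made from the same genes, so the groups are not independent. The pSHF library MR16 had an Irx1 level of 515, with a gap to the next library of 0.697 of the whole range. The HT library MR30 had an Irx5 level of 403, with a gap of 0.71 of the range below the next library. With any 1 library left out, MR30 included, the log2 fold change of Irx5 was between 0.50 and 0.61.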

How the results depend on the processing

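Across 22 alternatives to the limma fit, 12 of which left out 1 library each, Irx3, Irx4, Irx5 and Irx6 kept their direction and their call. Irx1 kept its direction in all and lost its call only at an adjusted p of 0.01, where 1 Iroquois gene in place of 2 was higher in pSHF. Irx2 lost its call in 13 alternatives and reversed in 1 more, to -0.0011 with equal library totals; with libraries left out its log2 fold change ran from 0.19 to 0.34. With equal library totals Gja1 reversed to -0.017, Meox1 to -0.126 and Fto to -0.196. With totals that leave out erythroid and mitochondrial-genome genes Meox1 reversed to -0.058 and Fto to -0.128, and with equal upper quartiles Fto reversed to -0.038. The cause was not tested. In the raw counts, edgeR called 2889 genes without a filter (1497 higher in HT and 1392 in pSHF) against 1629 (850 and 779), since more genes were tested; DESeq2's Wald test called 1499. With libraries left out Gja1 ran from -0.039 to 0.154 there, below 0 without pSHF library MR14. The IrxA share differed between tissues by 28.2 percentage points, and by 25.2 to 29.3 under the alternatives. No paired analysis was possible because the library columns carry no replicate number. Depth limits the raw counts of all members but Irx4.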

Other observations

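The genes with the highest ratio in pSHF library MR16 to the other pSHF libraries, among 11295 genes with a pSHF mean of at least 100, included plasma protein genes of the liver (Serpina6, Alb, Afp) and the homeobox gene Six2, named after their values were seen. Irx1 ranked 28th on this list with a log2 ratio of 0.75 and Irx2 ranked 66th with 0.55, while Irx5 ranked 264th and Irx3 929th. The hepatic list summed to 5039 in MR16, and to 7201 in MR17, the pSHF library with the lowest Irx2 level. The part of these cells in the levels of MR16 was not tested.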
